A study of Homo sapiens with 6 samples.

Results

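MicroRNA host gene transcripts are the long RNAs from which microRNA hairpins are cut, and their levels were examined in U251 glioma cells after sevoflurane (Sev), an inhaled anaesthetic. The members were the rows of the deposited count table whose Ensembl identifier carries a symbol that begins with MIR and ends with HG. This rule, which uses no measured value, found 84 of 61496 rows. A total of 43 members had enough counts to be tested, and 41 did not.

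The data were 6 libraries of RNA depleted of ribosomal RNA, with strand-specific adapters. Control cells were untreated (n = 3), and Sev cells received the gas for 2 h (n = 3). U251 is a human line from a glioblastoma, and all libraries came from this 1 line. The treatment protocol names 3 gas concentrations (1.7%, 3.4%, 5.1%) without assigning any of them to a library, so the concentration behind the Sev group is known only from a plot legend of the study, which names 5.1%. Library totals ran from 38624292 to 46318311 counts. The astroglial and glioma markers VIM, NES, GFAP, S100B, SOX2, CD44, EGFR and FABP7 were all detected at 1 CPM (counts scaled to library size) or more. Some of them changed with Sev, with log2 fold changes of −1.10 for S100B (adjusted p = 0.00215), −0.72 for SOX2 (0.000367), 0.97 for CD44 (0.000174) and 0.27 for EGFR (0.0451). The summed neuronal markers ran from 16.3 to 18.2 CPM in control and from 22.6 to 24.9 CPM in Sev libraries. Most of this was SYT1 (0.55, adjusted p = 0.00521), while RBFOX3 (−0.20, 0.522) and SNAP25 (0.35, 0.284) did not pass the test. The immune markers ran from 1.31 to 1.65 and from 3.96 to 5.97 CPM, nearly all of it CD14, with CD3E at 0. The endothelial markers ran from 7.12 to 9.21 and from 7.41 to 10.4 CPM. Of these PECAM1 rose (0.92, adjusted p = 0.0409), and CDH5 and VWF did not pass the test. The part of all these markers in the results on host genes was not tested. CDKN2A, which U251 cells lack, had 0 counts in every library. The epithelial markers EPCAM, CDH1 and KRT5 together reached at most 0.293 CPM in a library. The study's methods describe its quantitative data in general as coming from independent experiments, but neither they nor the labels say this of the sequenced libraries. If the libraries of a group did not come from separate cultures, the p-values measure only a technical spread between them. In bulk RNA, fewer cells of a type and less RNA per cell cannot be told apart.

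A host gene is transcribed as a primary transcript, and the nuclear complex of the nuclease DROSHA and its partner DGCR8 cuts the hairpin out of it. The nuclease DICER1 then trims the hairpin, and an Argonaute protein loads 1 strand, the mature microRNA. The seed, bases 2 to 8 of the mature strand, pairs with target messages, so microRNAs with the same seed are grouped as a family. The let-7 family is known for holding back proliferation and stem-cell genes, and its maturation is blocked by LIN28 proteins. The libraries measured long RNA. The level of a host transcript is not the level of its mature microRNA, which was not measured.

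The sequences below, from RefSeq (GRCh38.p14), show which hosts share a seed, since the hosts of one family did not move in one direction. Capitals mark the seed. Inside the spans of the tested members, 72 hairpins had a mature sequence in the table. They gave 129 mature strands with 105 distinct seeds, of which 6 occurred in more than 1 member. The let-7 seed GAGGUAG was the most shared, with 6 hosts. MIRLET7BHG holds let-7a and let-7b in exons. MIR100HG holds let-7a, MIR99AHG let-7c, MIRLET7IHG let-7i and MIR4500HG miR-4500, all in introns. MIR4458HG holds miR-4458 in an exon.
let-7a-5p: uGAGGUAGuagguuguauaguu
let-7b-5p: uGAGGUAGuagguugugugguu
let-7c-5p: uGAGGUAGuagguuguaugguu
let-7i-5p: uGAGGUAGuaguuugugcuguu
miR-4500: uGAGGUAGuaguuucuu
miR-4458: aGAGGUAGguguggaagaa

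MIR99AHG and MIR100HG are built alike. Each carries, besides its let-7, a member of the miR-99/100 family and a copy of miR-125b, shown because the pair of hosts shares 3 seeds.
miR-99a-5p: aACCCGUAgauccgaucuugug
miR-100-5p: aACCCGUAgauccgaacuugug
miR-125b-5p: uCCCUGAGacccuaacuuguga

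The remaining sequences belong to further hosts past the threshold and to MIR22HG and MIR23AHG, which are abundant. The strands of MIR210HG, MIR31HG, MIR503HG and MIR4435-2HG lie in introns, those of MIR133A1HG (miR-133a and miR-1), MIR22HG and MIR23AHG in exons, and that of MIR205HG across an exon edge.
miR-205-5p: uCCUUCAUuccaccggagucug
miR-210-3p: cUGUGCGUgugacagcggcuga
miR-31-5p: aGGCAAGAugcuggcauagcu
miR-133a-3p: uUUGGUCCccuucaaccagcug
miR-1-3p: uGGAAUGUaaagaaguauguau
miR-503-5p: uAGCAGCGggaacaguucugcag
miR-4435: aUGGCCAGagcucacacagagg
miR-22-3p: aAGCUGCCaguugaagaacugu
miR-23a-3p: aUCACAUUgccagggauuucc

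After Sev, with edgeR's quasi-likelihood test and an adjusted p under 0.05, 4 of the 43 hosts rose (9.3%) and 12 fell (27.9%). The falls include MIR205HG and MIR4500HG, which passed the expression filter only through the control group and so could enter only as falls. Over all 27514 tested features the shares were 22.1% and 21.5%, and over 5713 tested long non-coding RNA genes 17.8% and 21.6%. Past the threshold of a log2 fold change over 1 in size with an unadjusted p under 0.05, 3 members were higher (6.98%) and 9 lower (20.9%), against 11.4% and 12.0% of all tested features and 15.3% and 17.7% of long non-coding RNA genes. The differences from these background shares were not tested, and nothing is read from them. The Sev libraries lay wholly above the control libraries for 5 members (11.6%, against 28.3% of all features and 23.4% of long non-coding RNA genes) and wholly below them for 14 (32.6%, against 28.2% and 29.7%). The median log2 fold change of the tested members was −0.32, with 13 above 0 and 30 below, while the median was −0.0056 over all features and −0.11 over long non-coding RNA genes. These summaries depended on which members were included and on the test. Without the expression filter, when low-count members entered, the median was −0.00012, and 0.061 over all features. In that setting 9 members were higher and 9 lower past the threshold. These counts were 6 and 9 with DESeq2's Wald test, and 0 and 3 on log2(FPKM + 1).

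**Figure D1:**
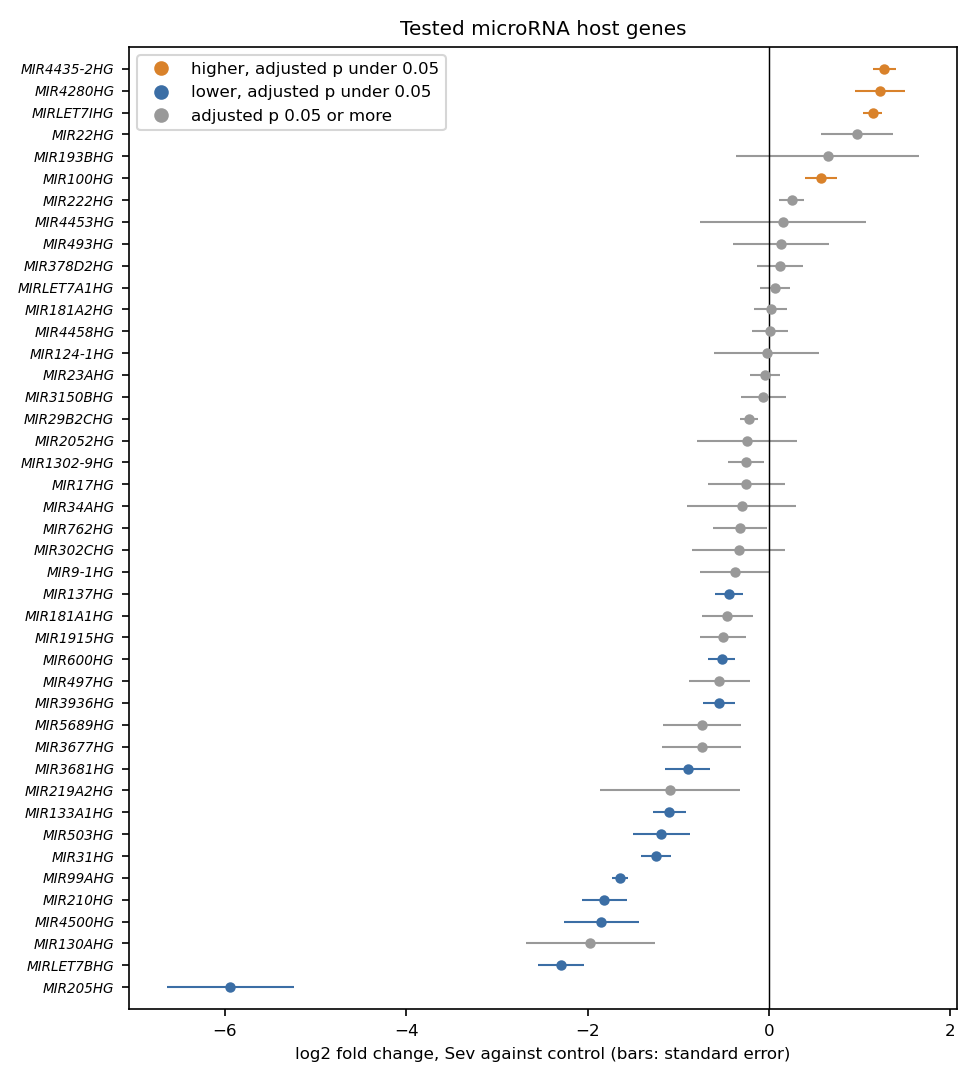
Log2 fold change of each tested microRNA host gene, Sev against control (horizontal axis), 1 row per gene, with bars for the standard error of the edgeR fit (n = 3 libraries per group). Of the 43 genes, 30 lie below 0 and 13 above, and MIR205HG stands farthest from 0 at −5.94.

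Of the 6 hosts of microRNAs with the let-7 seed, 3 fell, 2 rose and 1 did not pass the test, with 1 of the falls (MIR4500HG) and 1 of the rises (MIR100HG) on weak ground, as given with their values. Over all tested features 22.1% rose and 21.5% fell. MIRLET7BHG (GRCh38 chr22:46053869-46113928, plus strand) was the most abundant of them per length, at 33.2 FPKM (fragments scaled to transcript length and library size) in control cells. It measured 250, 193 and 226 CPM in the control libraries and 43.4, 63.3 and 29.5 CPM in the Sev libraries. The groups did not overlap, and even the highest Sev library was below the lowest control library by a wide margin. The mean went from 223 ± 28.9 to 45.4 ± 17 CPM (SD, n = 3 per group), a log2 fold change of −2.30 ± 0.26 (SE, adjusted p = 0.000489).

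MIR99AHG (chr21:15928296-16645065, plus strand), the host of the miR-99a, let-7c and miR-125b-2 hairpins, also fell. Its control libraries were at 104, 97.7 and 101 CPM and its Sev libraries at 35.1, 29.8 and 31.9 CPM. The libraries within each group lay close together, and the mean went from 101 ± 3.21 to 32.3 ± 2.64 CPM. The log2 fold change was −1.65 ± 0.09 (SE, adjusted p = 4.8e-05), the smallest adjusted p of any tested member. All 5 tested genes that overlap its span also fell at an adjusted p under 0.05. Among them were ENSG00000280432 on the same strand (log2 fold change −1.59) and ENSG00000270071 on the opposite strand (−1.38), so reads of this region may not be separable. MIR4500HG (chr13:87427214-87671259, minus strand) was near the limit of detection, with 18, 13 and 28 counts in control and 4, 4 and 6 in Sev libraries. At this depth its fall was measured with a large error, −1.85 ± 0.42 (log2, SE, adjusted p = 0.00914). It passed the expression filter only through the control group, so it could enter the test only by being higher there, and it left the test when every library had to reach 10 counts. On log2(FPKM + 1) without a filter it was at −0.024 (adjusted p = 0.23).

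MIRLET7IHG (chr12:62602752-62622213, plus strand), the host of let-7i, went the other way. It was at 18.3, 15.1 and 16.5 CPM in control and at 36.4, 35.8 and 37.9 CPM in Sev libraries, with no overlap. The mean rose from 16.6 ± 1.61 to 36.7 ± 1.07 CPM, and the log2 fold change was 1.14 ± 0.10 (SE, adjusted p = 0.00022). MIR100HG (chr11:122028327-122556721, minus strand), whose layout mirrors that of MIR99AHG, measured 22, 29 and 20.5 CPM in control and 41.6, 29.3 and 35.4 CPM in Sev libraries. Its groups nearly touched, since control 2 and Sev 2 were at 29 and 29.3 CPM. Its log2 fold change was 0.57 ± 0.17 (SE, adjusted p = 0.0291), and the call was lost without control 1, control 3, Sev 1 or Sev 3, with an adjusted p of up to 0.106. It was lost in 10 of 15 alternatives in all, also with library size only (0.0753), without the filter (0.0538), with a replicate block (0.0624) and on all FPKM scales (up to 0.278). The paired architecture of MIR99AHG and MIR100HG therefore came with opposite signs, 1 of them on a call that did not hold in every fit.

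MIR4458HG was at 1.99 ± 0.272 CPM in control and 2.01 ± 0.205 CPM in Sev cells, a log2 difference of 0.0089 ± 0.20 (SE, adjusted p = 0.975). MIRLET7A1HG is named for a let-7a hairpin that lies outside its annotated span (chr9:94176458-94177892, plus strand). It was at 12.7 ± 0.518 CPM in control and 13.3 ± 2.68 CPM in Sev cells (log2 fold change 0.063 ± 0.16, SE, adjusted p = 0.778). The sign of both differences turned under other scalings.

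**Figure D2:**
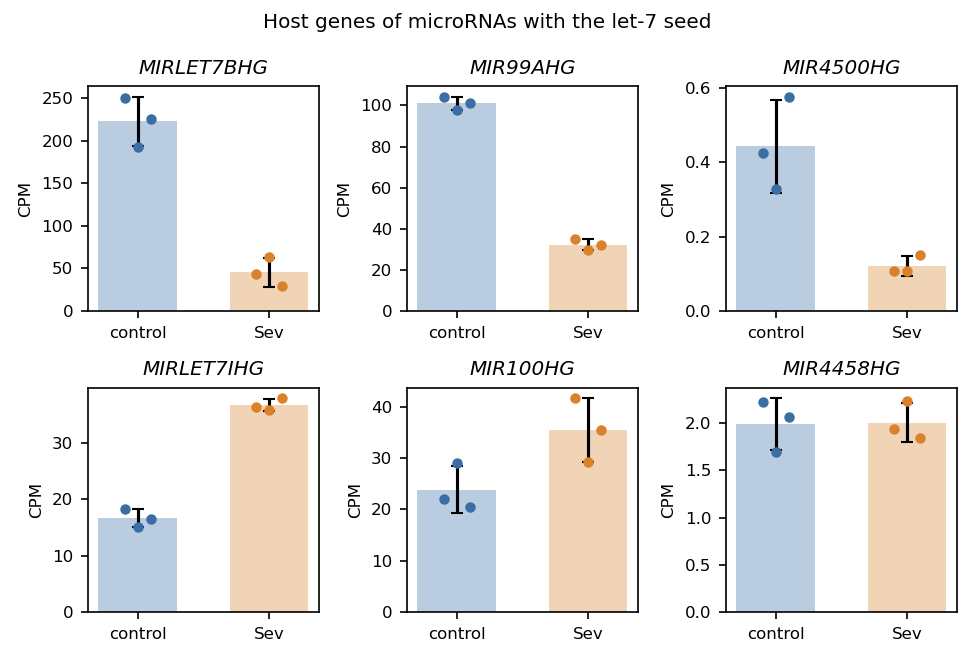
TMM-normalized CPM (vertical axes, each starting at 0) of the host genes of microRNAs with the let-7 seed, 1 panel per gene, with a point for each library, bars for the group mean and error bars for the SD (n = 3 libraries per group). MIRLET7BHG, MIR99AHG and MIR4500HG are lower in every Sev library, MIRLET7IHG is higher in every Sev library, and MIR100HG has control 2 and Sev 2 almost level.

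The other members that rose were MIR4435-2HG and MIR4280HG. MIR4435-2HG (chr2:111036776-111523376, minus strand) overlaps BCL2L11, which encodes the cell-death protein BIM, and is also known as Morrbid. It measured 71, 101 and 88.9 CPM in control and 203, 213 and 214 CPM in Sev libraries. Each Sev library was above each control library, and the mean rose from 87.1 ± 15.3 to 210 ± 6.32 CPM (log2 fold change 1.27 ± 0.13, SE, adjusted p = 0.000325). This row carries an uncertainty, since CYTOR, elsewhere on chromosome 2, is a near-identical copy, and reads shared by both could be split or dropped in a way the sources used here do not state. CYTOR itself went from 108 ± 10.7 to 368 ± 7.94 CPM (log2 fold change 1.77 ± 0.09, SE, adjusted p = 3.99e-05), so both rows moved in the same direction. BCL2L11, counted on the opposite strand of the MIR4435-2HG span, was at 20.9 ± 3.04 and 24.9 ± 3.85 CPM (adjusted p = 0.217). Of 13 tested genes that overlap this long span, 9 rose at an adjusted p under 0.05. Among them were ENSG00000279191 and ENSG00000224959 on the same strand (log2 fold changes 1.65 and 1.13) and PAFAH1B1P2 and SOCAR on the opposite strand (2.65 and 1.15), so reads of this region may not be separable.

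MIR4280HG (chr5:87205408-87240145, minus strand) has no microRNA hairpin in its annotated span on that strand. It measured 2.29, 3.51 and 2.68 CPM in control and 7.43, 4.26 and 8.03 CPM in Sev libraries. Sev 2 was the lowest of its group but still above all control libraries. The mean rose from 2.83 ± 0.621 to 6.57 ± 2.03 CPM, and the log2 fold change was 1.22 ± 0.28 (SE, adjusted p = 0.00924). The call was lost on log2(FPKM + 1) without a filter (0.29, adjusted p = 0.1), a scale that shrinks changes at such levels.

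MIR205HG (chr1:209428820-209432838, plus strand), the host of miR-205, a microRNA typical of epithelial cells, had the largest change of the 43 tested members. Like MIR4500HG, it passed the expression filter only through the control group. Its control libraries held 311, 129 and 211 counts, and its Sev libraries 1, 0 and 8. The mean fell from 4.98 ± 2.12 to 0.0762 ± 0.11 CPM, and the log2 fold change was −5.94 ± 0.70 (SE, adjusted p = 0.000591). With so few Sev counts its size was loosely set. It was −8.25 without Sev 3, the library with 8 counts, and −5.38 without Sev 2. The summed epithelial markers ran from 0.101 to 0.142 CPM in control and from 0.0796 to 0.293 CPM in Sev libraries, so the defining markers of that cell type were near 0 in both groups.

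MIR210HG (chr11:565660-568457, minus strand) is the host of miR-210, which is known as the microRNA most regularly induced by low oxygen. It was at 18.3, 14.3 and 9.81 CPM in control and at 3.98, 4.74 and 3.31 CPM in Sev libraries. The control libraries were widely spread but none reached down to the Sev libraries, and the log2 fold change was −1.82 ± 0.25 (SE, adjusted p = 0.00112). MIR31HG (chr9:21455642-21559669, minus strand), the host of miR-31, measured 6.38, 6.71 and 6.43 CPM in control and 2.81, 2.29 and 3.1 CPM in Sev libraries. Both groups were tight, and the log2 fold change was −1.25 ± 0.17 (SE, adjusted p = 0.000955).

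MIR133A1HG (chr18:21825487-21831410, minus strand) is the host of the muscle microRNAs miR-133a and miR-1. It was at 5.6, 7.32 and 6.3 CPM in control and at 3.08, 3.35 and 2.52 CPM in Sev libraries, with no overlap (log2 fold change −1.10 ± 0.18, SE, adjusted p = 0.00233). It lies antisense to MIB1, a ubiquitin ligase of Notch signaling, which was at 153 ± 5.02 and 149 ± 2.6 CPM (log2 fold change −0.04, adjusted p = 0.685). The antisense partner was therefore far more abundant and had no matching difference.

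MIR503HG (chrX:134543337-134546632, minus strand) hosts miR-503, a microRNA that slows the cell cycle. It measured 1.96, 3.03 and 2.8 CPM in control and 0.664, 1.44 and 1.31 CPM in Sev libraries. The groups did not overlap, and the log2 fold change was −1.19 ± 0.32 (SE, adjusted p = 0.0186). The call was lost without control 2 (adjusted p = 0.0583) and without control 3 (adjusted p = 0.0581).

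**Figure D3:**
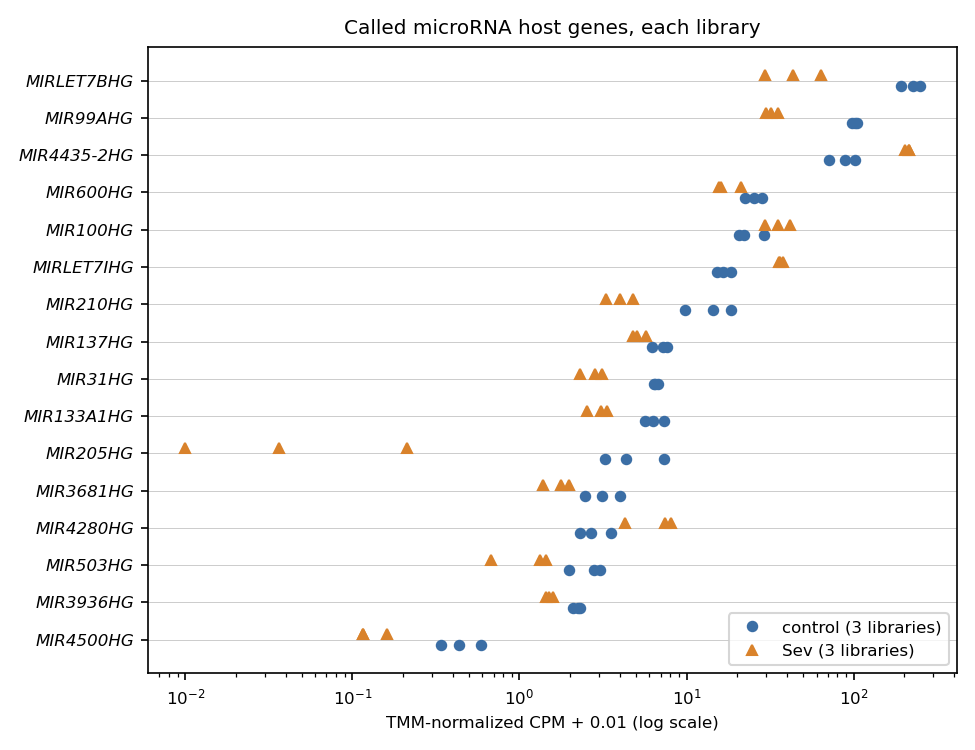
TMM-normalized CPM + 0.01 (horizontal log axis) of each of the 16 members with an adjusted p under 0.05, with a point for each of the 3 control and 3 Sev libraries. Points of the groups do not overlap for any of them, and those of MIR205HG lie farthest apart.

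Smaller changes were called for MIR600HG, MIR3681HG, MIR3936HG and MIR137HG, all lower after Sev. MIR600HG measured 28.2, 22.4 and 25.2 CPM in control and 16.1, 21.1 and 15.7 CPM in Sev libraries, a log2 fold change of −0.52 ± 0.15 (SE, adjusted p = 0.0245). The log2 fold changes were −0.90 ± 0.24 for MIR3681HG (adjusted p = 0.0192), −0.55 ± 0.18 for MIR3936HG (adjusted p = 0.0382) and −0.44 ± 0.15 for MIR137HG, the host of the neural microRNA miR-137 (adjusted p = 0.0462). These calls were fragile. MIR3936HG lost its call whichever of the 6 libraries was omitted (adjusted p up to 0.113), MIR137HG in every such fit but the one without control 1 (up to 0.143), MIR600HG without control 1, control 3, Sev 1 or Sev 3 (up to 0.0819), and MIR3681HG without control 1 or Sev 1 (up to 0.0669). Over all alternatives with a value, the call was lost in 10 of 13 for MIR3936HG, 12 of 15 for MIR137HG, 5 of 15 for MIR600HG and 3 of 13 for MIR3681HG. MIR137HG overlaps DPYD on the same strand, and DPYD was lower by a like amount (log2 fold change −0.52, adjusted p = 0.00152). MIR600HG overlaps STRBP, also on its strand (−0.31, adjusted p = 0.0287). Reads of such pairs may not be separable.

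The most abundant member, MIR23AHG (chr19:13823880-13842928, minus strand), did not pass the test. It carries the miR-23a, miR-27a and miR-24-2 cluster in an exon. It measured 1123, 925 and 1080 CPM in control and 980, 1250 and 799 CPM in Sev libraries. The groups overlapped on both sides, with a log2 fold change of −0.047 ± 0.16 (SE, adjusted p = 0.838), and the sign turned without control 1 or Sev 3. Per length it was also the highest member, at 46.5 FPKM in control and 40.5 FPKM in Sev cells. MIRLET7BHG came next at 33.2 FPKM in control cells, but at 6.05 FPKM after Sev it ranked below MIR4435-2HG (9.36), MIR22HG (6.57) and MIR222HG (6.4). The values of MIRLET7BHG, MIR222HG and MIR22HG after Sev lay within the spread of their libraries and gave no firm order.

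**Figure D4:**
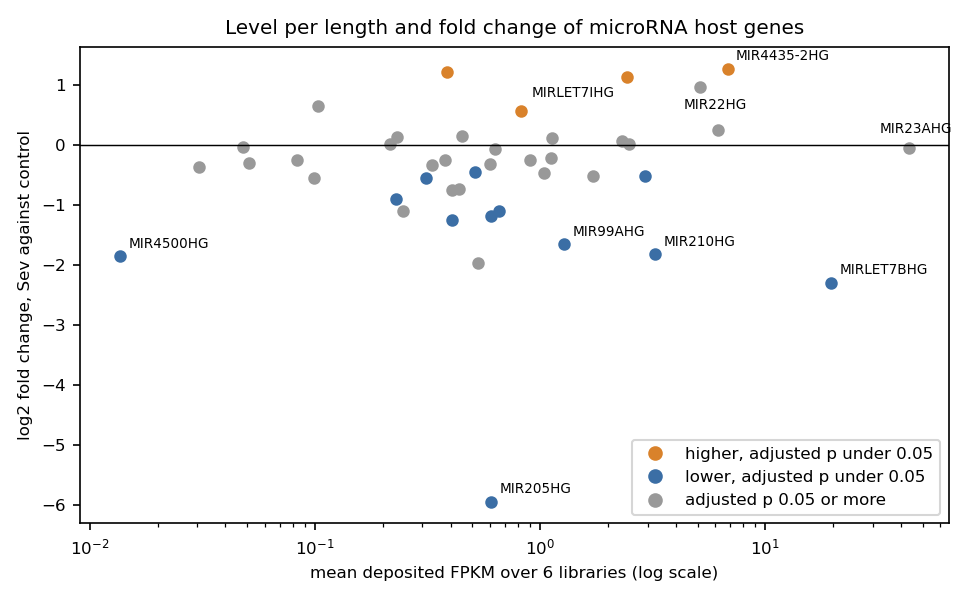
Mean deposited FPKM over the 6 libraries (horizontal log axis) against log2 fold change, Sev against control (vertical axis), 1 point per tested member, colored by call. MIR23AHG, the most abundant at 43.5 FPKM, lies near 0, while MIRLET7BHG, the next at 19.6 FPKM, lies at −2.30.

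MIR22HG (chr17:1711493-1717174, minus strand), the host of miR-22 and a transcript known to respond to chemical stress, was at 17.8, 5.15 and 16.3 CPM in control and at 28.5, 27.6 and 21.1 CPM in Sev libraries. Every Sev library was higher than every control library, but control 2 stood far below the other controls. The log2 fold change of 0.97 ± 0.40 (SE) had an adjusted p of 0.081. Without control 2 the difference was smaller, 0.59, and passed the test (adjusted p = 0.0299).

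MIR222HG, the host of miR-221 and miR-222, measured 18, 21.7 and 18.9 CPM in control and 27.2, 21.9 and 20.5 CPM in Sev libraries (log2 fold change 0.25, adjusted p = 0.178). MIR29B2CHG, the host of miR-29b and miR-29c, measured 25.5, 22.4 and 26.3 CPM in control and 20.7, 21.3 and 21.7 CPM in Sev libraries (−0.22, adjusted p = 0.114, but −0.36 and 0.0321 with library size only). The groups overlapped for MIR222HG and stood apart by a narrow gap for MIR29B2CHG. MIR17HG, the host of the miR-17 to miR-92a cluster that MYC drives, had 94, 103 and 51 counts in control and 50, 95 and 42 counts in Sev libraries. It differed by −0.25 ± 0.42 (log2, SE, adjusted p = 0.658), and by −0.00041 without control 2 and −0.70 without Sev 2. MIR181A2HG was level at 2.03 ± 0.23 and 2.05 ± 0.11 CPM (0.017, adjusted p = 0.95). MIR181A1HG, which shares the miR-181 seed ACAUUCA with it, was at −0.46 (adjusted p = 0.217), with control 3 at 11.8 CPM and the other controls at 5.22 and 7.07 CPM. Without control 3 it was at −0.077.

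In several further members 1 library set the value. MIR130AHG had 292 counts in control 1, 58 and 70 in the other controls, and 20, 54 and 21 in Sev libraries. Its log2 fold change was −1.97 ± 0.71 (SE, adjusted p = 0.0551) with all libraries and −0.81 (adjusted p = 0.228) without control 1. The adjusted p fell to between 0.0412 and 0.0431 without control 2, control 3 or Sev 2. With all libraries it passed under library size only (−2.14, adjusted p = 0.0407) and under DESeq2's Wald test (−1.97, adjusted p = 0.00802). YPEL4, on the opposite strand of its span, went the same way (−1.83, adjusted p = 0.014), and CLP1, which overlaps it on the same strand, rose (0.60, adjusted p = 0.039).

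MIR4453HG had 0 counts in control 1 and 107 and 102 counts in the other controls, against 68, 62 and 74 in Sev libraries. Its log2 difference was 0.15 with all libraries and −0.44 without control 1. MIR193BHG had 58, 9 and 16 counts in control and 9, 96 and 9 in Sev libraries, and its difference of 0.64 turned to −1.44 without Sev 2. MIR219A2HG had 32, 17 and 34 counts in control and 0, 14 and 20 in Sev libraries (−1.09 ± 0.77, SE, adjusted p = 0.285), and was at −0.52 without Sev 1. MIR1915HG was at −0.51 (adjusted p = 0.14) and at −0.82 without Sev 2 (adjusted p = 0.0176). None of these 5 passed the edgeR test with all libraries, TMM scaling and no block. The 27 tested members without a call spanned −1.97 to 0.97.

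The rows of the hairpins themselves held little. A total of 41 tested members had 77 hairpin rows within their span on their own strand, 30 in an exon, 44 in an intron and 3 across an exon edge. Of these rows 68 had at most 10 counts in every library, and 11 were at 0 throughout. A deposited 1 in such a row did not stand for a whole read: 179 of 1879 microRNA rows held exactly 1 in all 6 libraries, and the deposited FPKM of those rows implied a median of 0.225 fragments and at most 0.785. Libraries of fragmented long RNA hold few reads that fit a hairpin, and a count there may come from the primary transcript.

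Only 6 hairpin rows could be tested, and 2 rose and 1 fell, where 22.1% and 21.5% of all tested features did. Of the rises, that of the MIR22 row had its direction fixed by the expression filter, which the row passed only through the Sev group. The MIR4435-2 row, in an intron, had 18, 16 and 21 counts in control and 38, 45 and 36 in Sev libraries. It rose by a log2 fold change of 1.30 ± 0.26 (SE, adjusted p = 0.00545), next to 1.27 for its host. The MIR3619 row, in an intron of MIRLET7BHG, had 185, 122 and 201 counts in control and 39, 73 and 34 in Sev libraries, a log2 fold change of −1.60 ± 0.32 (SE, adjusted p = 0.00562), where the host was at −2.30. Both rows thus moved with their hosts. The MIR22 row, in an exon, had 19, 1 and 1 counts in control and 57, 62 and 57 in Sev libraries (3.21 ± 0.78, SE, adjusted p = 0.0123). Its direction is no support for MIR22HG, and 2 of its control values were the deposited 1. The 3 rows that did not pass had the opposite sign to their hosts, with differences within their error or not past the test. MIR221 was at −0.36 (adjusted p = 0.311) with MIR222HG at 0.25, and MIR181B2 at −0.83 (adjusted p = 0.135) and MIR181A2 at −0.087 with MIR181A2HG at 0.017. The MIR181B2 row had 11, 15 and 19 counts in control and 6, 10 and 6 in Sev libraries. It passed the expression filter only through the control group, so its sign was set by the filter and says nothing about its host.

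Overlapping genes limit what can be said of a host alone. Of the tested members 27 overlapped another tested gene, 12 on the same and 22 on the opposite strand. The adapters kept the strand, but whether the counting used it is not given in the sources used here. LINC01465, opposite MIRLET7IHG, rose by a log2 fold change of 1.14 (adjusted p = 0.00127), the same as its partner, at a lower level (2.44 ± 0.3 CPM in control, 5.37 ± 0.148 CPM in Sev cells). Of 4 tested genes that overlap MIRLET7BHG, 3 fell with it, among them PRR34 on the opposite strand (−1.21, adjusted p = 0.00318). IFNE, on the same strand as MIR31HG, fell as well (−1.41, adjusted p = 0.0401). Their part in the counts of the hosts was not tested.

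The 41 members that did not pass the filter reached at most 24 counts in a library, and 8 of them had 0 counts throughout. MIR3667HG had 0 counts in all control libraries and 9, 8 and 23 in Sev libraries. Its Sev mean was 4.95 times a floor of 3 counts per control library, a ratio that leaves out the error of the Sev mean. MIR4307HG, with 0 counts in all control libraries and 7, 4 and 7 in Sev libraries, had a Sev mean 2.25 times the same floor. Without the filter both passed the test (adjusted p = 0.00957 and 0.0223), as no other member below the filter did. MIR155HG, the host of the immune microRNA miR-155, had 8, 8 and 16 counts in control and 4, 9 and 5 in Sev libraries.

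Of 25 genes of microRNA processing listed and tested, 6 rose and 6 fell at an adjusted p under 0.05 (24% each way, close to the 22.1% and 21.5% of all tested features), and the median log2 fold change was 0.043. The split was 3 up and 8 down with library size only, and 2 up and 8 down on log2(FPKM + 1) and log2(FPKM + 0.1) with the filter. DDX17, a helicase that helps DROSHA cut a subset of hairpins, had the largest fall. It was at 612, 550 and 563 CPM in control and at 221, 236 and 192 CPM in Sev libraries (log2 fold change −1.41 ± 0.10, SE, adjusted p = 0.000102). DGCR8 itself rose from 67.5 ± 3.78 to 100 ± 0.455 CPM (0.57 ± 0.08, SE, adjusted p = 0.000991).

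The 4 other genes named from this list act on let-7 precursors. LIN28B, which blocks let-7 maturation, rose from 0.952 ± 0.279 to 2.93 ± 0.635 CPM (log2 fold change 1.61 ± 0.28, SE, adjusted p = 0.00317), a low level in both groups. KHSRP, a protein that aids let-7 maturation, rose from 194 ± 21.7 to 354 ± 15.4 CPM (0.87 ± 0.10, SE, adjusted p = 0.000486). TUT7 and TUT4, which add uridines to precursors, fell by 0.62 and 0.57 on the log2 scale (adjusted p = 0.00158 and 0.00488).

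**Figure D5:**
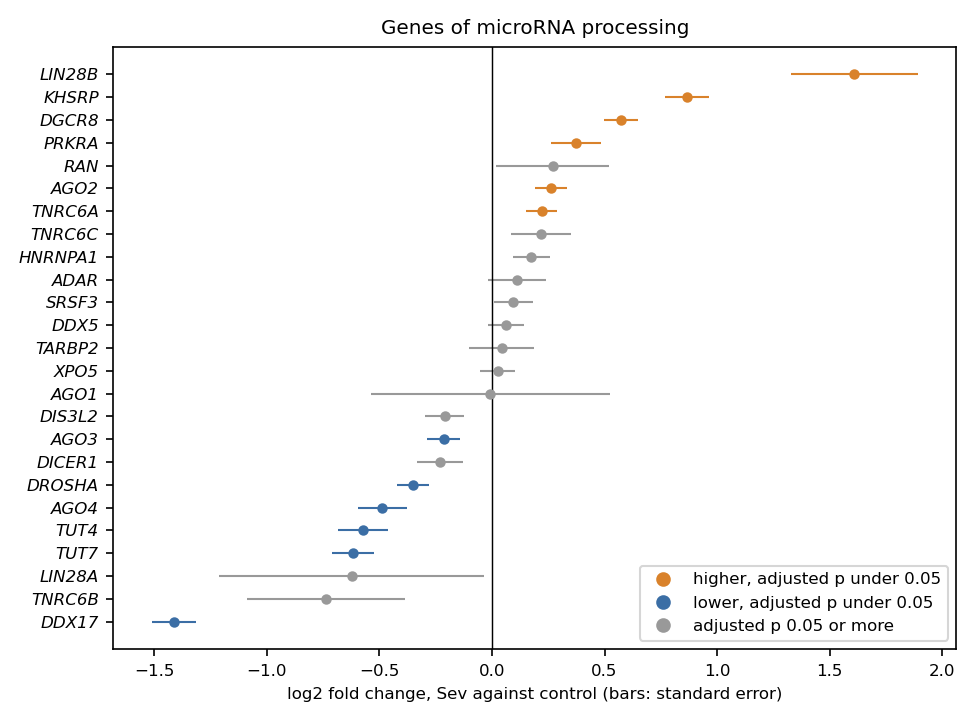
Log2 fold change, Sev against control (horizontal axis), of the 25 genes of microRNA processing, 1 row per gene, with bars for the standard error (n = 3 libraries per group), colored by call. LIN28B at 1.61 and DDX17 at −1.41 are the ends of the range.

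MicroRNAs also lie in introns of protein-coding genes. Of 40 such hosts listed, 38 were tested, and 7 rose and 7 fell (18.4% each way, under the 22.1% and 21.5% of all tested features). The split depended on the scaling, with 6 up and 12 down with library size only and 4 up and 11 down on log2(FPKM + 1). The median log2 fold change was −0.022, against −0.0056 over all features. Those with the largest changes included GABRE, a GABA receptor subunit and host of miR-452 and miR-224, which was at 101 ± 6.07 CPM in control and 41.9 ± 5.26 CPM in Sev cells (−1.26 ± 0.11, SE, adjusted p = 0.000183). TRPM3, an ion channel and host of miR-204, went from 39.9 ± 4.3 to 16.6 ± 6.99 CPM (−1.26 ± 0.30, SE, adjusted p = 0.0113), and PANK1, the coenzyme A synthesis enzyme that hosts miR-107, from 10.6 ± 1.41 to 6.61 ± 0.196 CPM (−0.68 ± 0.14, SE, adjusted p = 0.00636). ARPP21, AATK and RCL1 rose by log2 fold changes of 1.43, 0.97 and 0.87 (adjusted p = 0.00638, 0.00189 and 0.00062).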

How the data were processed

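The authors deposited whole-number counts per gene, not normalized, and FPKM values. In some short rows a deposited count of 1 stands for less than 1 fragment by its FPKM. The submitters' processing notes name bcl2fastq 2.19, featureCounts and hg18, the last with no role. The aligner and annotation are not given in the sources used here, and the identifiers match 58457 entries of GENCODE 29 (GRCh38), from which positions and strands were taken. Symbols were joined to 60295 of 60564 Ensembl identifiers. GENCODE 29 symbols would have given 61 members, 60 of them shared with the 84 used.

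Counts were fitted over all features in R 4.3.3 with edgeR 4.0.16 (filterByExpr, TMM, glmQLFit, glmQLFTest) without covariates, with Benjamini-Hochberg adjustment over all tested features. An exact permutation test of 3 against 3 cannot go under 0.1. Standard errors are the absolute log2 fold change over the square root of the F statistic. CPM values are TMM-normalized. Libraries of a group differed beyond sampling noise in 49.0% to 67.4% of genes, so none was a copy of another. This does not show whether they came from separate cultures, since separate preparations of 1 RNA could differ as well. Intervals from counts and the floor of 3 counts cover counting error only. Depth limits members under about 10 counts. The fit was tested on simulated data. Alternatives used DESeq2 1.42.0 and limma 3.58.1.

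Values in every library are given for members past the threshold with an adjusted p under 0.05 and for the 10 with the highest mean CPM. Of each other list, up to 6 genes with an adjusted p under 0.05 and the largest changes are named. Members shown for 1 deviating library, CYTOR and the overlapping genes were chosen after their values were seen. The members and lists were chosen with earlier results of these data known.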

Additional observations from a re-analysis of the deposited data

How the results depend on the processing

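Of the 16 members called, 8 kept direction and call under every alternative that gave them a value, 10 did so in every fit that left out a library, and none changed sign in any alternative. MIR205HG, 1 of the 8, had no value when every library had to reach 10 counts, nor had MIR4500HG. Leaving out a library gave 3 to 5 members higher and 8 to 12 lower, 3 to 4 and 7 to 10 past the threshold, and a median of −0.42 to −0.27. Replicate numbers did not pair the libraries (correlations −0.0072, 0.0035 and 0.027, and 3 of 6 libraries closest to their own number). With the replicate number as a block, 3 members rose and 9 fell, 4 and 8 past the threshold, with a median of −0.39.

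The median log2 fold change of members was −0.45 with library size only, 0.017 with DESeq2's Wald test, −0.00012 without the filter, −0.19 with limma on log2(FPKM + 1) and −0.0096 on the same scale without a filter. The DESeq2 and no-filter settings hold more low-count members. Members higher past the threshold numbered 6 with DESeq2's Wald test, 9 without the filter, 0 on log2(FPKM + 1) with or without a filter, and 1 on log2(FPKM + 0.1). Members lower past the threshold numbered 3 on log2(FPKM + 1), with or without a filter. Members higher by adjusted p numbered 2 with either pseudocount and the FPKM filter, and 4 on log2(FPKM + 1) without it. A pseudocount shrinks the changes of low genes by construction. Library size alone moved the median of all features to −0.15, and FPKM with pseudocounts of 1 and 0.1 to −0.11 and −0.17. That median was 0.061 without the filter and 0.077 with DESeq2's Wald test.

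Processing genes that rose numbered 3 with library size only, 2 on log2(FPKM + 1) and log2(FPKM + 0.1), 3 on log2(FPKM + 1) without a filter, and 3 to 6 when a library was left out (3 without control 2, control 3 or Sev 1). Protein-coding hosts that fell numbered 12 with library size only and 11 with either pseudocount and the filter, and those that rose 4 in all 3 FPKM settings. The cause was not tested for these lists.

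Signs turned only in members without a call. MIRLET7A1HG was at −0.084 with library size only, −0.068 on log2(FPKM + 1) with or without a filter, −0.097 on log2(FPKM + 0.1) and −0.073 without Sev 1 (highest 0.21, without Sev 3). MIR181A2HG was at −0.13, −0.094 and −0.12 in those scalings, −0.079 without control 2 and −0.014 without Sev 2 (highest 0.068, without control 1). MIR4458HG was at −0.14 with library size only, −0.0031 without the filter, −0.025 on log2(FPKM + 1) without a filter, −0.10 without control 2 and −0.072 without Sev 2 (highest 0.085, without control 1). MIR23AHG was at 0.00075 without control 1 and 0.099 without Sev 3 (lowest −0.23, without Sev 2). MIR4453HG ran from −0.44 without control 1 to 0.73 without control 2, and MIR193BHG from −1.44 without Sev 2 to 1.82 without control 1.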
